A study of Mus musculus with 12 samples.

Results

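Expression of 10 circadian clock genes was examined after alcohol drinking in the mouse forestomach, a rodent stomach compartment with a squamous epithelium. The genes were Arntl, Clock, Npas2, Per1, Per2, Per3, Nr1d1, Nr1d2, Dbp and Ciart, the last of which the array annotation lists under its older symbol Gm129. Every probe annotated with one of these symbols was taken, which gave 16 of the 41174 probes on the array and 10 of the 20724 genes tested. All mice were adult, wild type and of strain C57BL/6J. The 40-week group (n = 4 samples) had received 15% alcohol, and its labels mention no saccharin. The 4-week group (n = 4) had received 20% alcohol in supersaccharin, and the controls (n = 4) supersaccharin with 0% alcohol. Whole forestomach RNA was labelled with Cy5 and hybridised against a commercial pool of mouse reference RNA in Cy3 on every array, without a dye swap. The time of day of dissection is not given in the sources used here.

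The mammalian clock is a transcription feedback loop present in most cells. ARNTL (BMAL1) pairs with CLOCK or NPAS2 and activates genes with E-box elements, among them the Per and Cry genes, whose proteins repress the pair, and Nr1d1 and Nr1d2, whose proteins REV-ERB alpha and beta repress Arntl, Clock and Npas2 through ROR response elements. In a tissue with a running clock, Arntl and its partners therefore peak at about the opposite time of day from Nr1d1, Dbp and Ciart, and Per1, Per2 and Per3 follow within hours. How a shift in phase would show in a single sample depends on the time of day at which it was taken.

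Promoter sequence illustrates this wiring for the members with matches. RefSeq windows of GRCm38.p6, from 250 bases before to 50 after a gene's start, existed in the table used for 9 of the 10 genes (13 windows). The E-box CACGTG was searched, and on both strands the D-box TTATGNAA, bound by DBP and its relatives, and the core TAGGTCA of the ROR response element; the E-box reads the same on both strands. The E-box was found in the windows of 2 genes, the D-box in 2 and the core element in 1. Ciart held 3 E-boxes, a number reached in 29 of 32851 windows (0.088%), while 7.15% held at least 1. The D-box occurred in 3.38% of windows and the core element in 2.61%. A match is a run of letters and not a measured binding site. The sequences below are the stretches with matches, and capitals mark the motifs.
Ciart, chr3:95882229-95882478, minus strand, the 250 bases before the start, E-boxes: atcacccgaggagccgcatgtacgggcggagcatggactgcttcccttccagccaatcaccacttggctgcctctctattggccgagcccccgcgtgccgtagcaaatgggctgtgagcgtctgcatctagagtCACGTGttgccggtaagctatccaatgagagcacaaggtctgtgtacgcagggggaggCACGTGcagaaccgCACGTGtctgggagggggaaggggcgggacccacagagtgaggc
Per1, chr11:69098699-69098948, plus strand, the 250 bases before the start, E-box then D-box: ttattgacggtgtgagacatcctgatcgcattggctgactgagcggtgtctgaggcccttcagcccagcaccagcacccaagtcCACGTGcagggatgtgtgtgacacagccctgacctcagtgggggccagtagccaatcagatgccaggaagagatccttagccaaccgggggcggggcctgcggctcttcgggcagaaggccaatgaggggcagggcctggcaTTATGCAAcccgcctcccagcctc
Per3, chr4:151044666-151044915, minus strand, the 250 bases before the start, D-boxes: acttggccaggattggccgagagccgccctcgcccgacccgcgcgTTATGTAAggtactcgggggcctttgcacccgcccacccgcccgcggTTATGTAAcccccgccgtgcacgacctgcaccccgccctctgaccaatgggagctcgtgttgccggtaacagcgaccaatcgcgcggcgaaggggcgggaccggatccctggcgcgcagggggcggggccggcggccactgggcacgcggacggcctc
Arntl, chr7:113207529-113207558, plus strand, 30 bases around the core element: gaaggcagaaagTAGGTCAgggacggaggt

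Each value below is a log2 ratio of forestomach RNA over reference RNA unless stated otherwise, so a difference of 1 is a doubling. The 40-week comparisons rest on the deposited value table of all 12 samples, and the 4-week comparison on scanner signals of 8 arrays. Ratios listed sample by sample are deposited values unless scanner ratios are named. Their group means can therefore differ by more or less than the 4-week difference given beside them. A gene was called at a Benjamini-Hochberg adjusted p under 0.05 in limma over all genes. Control and 4-week arrays lay on 1 slide and in 1 scan per group, so slide, scan and treatment cannot be told apart there. By the labels, 40-week samples and controls differ in saccharin as well as alcohol, and these cannot be told apart either. Nothing in the labels says that the samples of a group came from separate animals, so p-values measure only the spread between these samples. The squamous epithelium markers were present, with a median over 14 genes of 2.45 to 2.77 at 40 weeks, 3.21 to 3.85 at 4 weeks and 4.43 to 4.92 in controls. The lower ratios at 4 weeks went with a brighter reference channel. Over these genes the median 4-week difference was -0.97 in ratios, with all 14 lower. In Cy3 alone it was 1.02, with all 14 higher, and in Cy5 alone 0.18, with 10 higher and 4 lower. Transcripts of neighbouring organs stood out on 3 arrays. The median of 12 glandular stomach markers was 3.50 in 4-week replicate 2 and 4.92 in control replicate 4, and the median of 14 acinar pancreas markers was 6.46 in control replicate 3. At 40 weeks, replicates 3 and 4 stood apart from the other 10 samples in Eif2s3y, a Y-linked gene (-6.28 to -5.67 against 2.61 to 3.17), and in Xist (0.11 to 0.63 against -2.25 to -0.82). The part of these differences in the results was not tested. Member results that change their call without these arrays are given with and without them, as are some that move in size only. In whole tissue, fewer cells of a type and less RNA per cell cannot be told apart.

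At 40 weeks, Per2 and Per1 were higher and Nr1d1 was lower than in controls, which made 3 of the 10 members called, where 42.5% of all genes tested were called (18.6% higher and 24.0% lower). Each call is that of the gene's brightest probe, and a second Per2 probe lay below all controls at 40 weeks. At 4 weeks, Ciart was higher than in controls and the only member called, where 1.07% of all genes were called (0.265% higher). Directly between the alcohol groups, Per2 and Per3 were higher and Nr1d1 and Ciart lower at 40 weeks than at 4 weeks, 4 of the 10 members against 41.5% of all genes (18.3% higher and 23.2% lower). These comparisons share samples, since the same 4 controls stand in the first and the second. All samples of a group lay beyond all controls for 3 members at 40 weeks, where the same held for 42.3% of all genes, and for 2 members at 4 weeks, where it held for 11.8%. Between the alcohol groups this was so for 2 members and for 45.3% of all genes. The median difference over the 10 members was 0.05 at 40 weeks and 0.06 at 4 weeks, beside -0.09 and -0.02 over all genes.

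**Figure D1:**
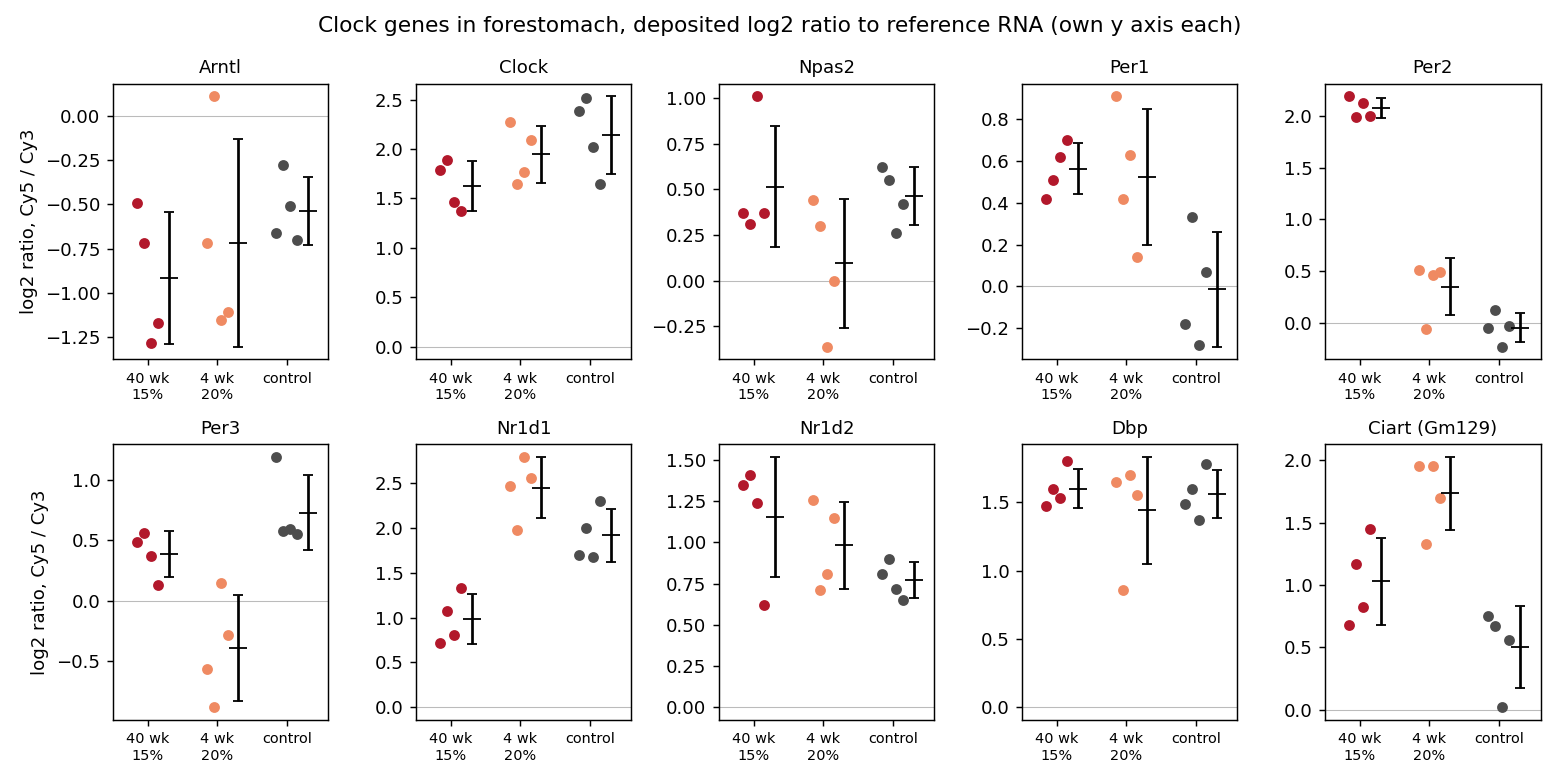
Deposited log2 ratio of each of the 10 clock genes (y axis, own scale per gene; brightest probe) in the 4 samples of each group (x axis), with the group mean and SD as a bar. Per2 at 40 weeks (1.99 to 2.19) lies above all other samples, Nr1d1 at 40 weeks (0.72 to 1.33) below them, and Ciart at 4 weeks (1.33 to 1.95) above all controls (0.02 to 0.75).

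The activating arm, Arntl, Clock and Npas2, gave no call in any comparison on the brightest probe of each gene. Arntl, the indispensable partner of the activator pair, had ratios of -0.49, -0.72, -1.28 and -1.17 at 40 weeks, of -0.72, 0.11, -1.15 and -1.11 at 4 weeks and of -0.66, -0.28, -0.51 and -0.70 in controls. Several alcohol samples lay below the controls, but the groups overlapped, and the 0.11 of 4-week replicate 2 was the highest of all 12. The difference from controls was -0.38 ± 0.27 (SE) at 40 weeks (limma adjusted p = 0.283, 95% interval -0.97 to 0.21) and -0.16 ± 0.25 at 4 weeks (adjusted p = 0.786, interval -0.73 to 0.41). The 4-week difference was -0.42 without 4-week replicate 2 (adjusted p = 0.248), -0.49 with the 3 arrays rich in neighbouring-organ transcripts left out (0.188) and -0.015 without 4-week replicate 3 (0.987), none of them called. Without 40-week replicates 3 and 4 the 40-week difference was -0.066 (limma adjusted p = 0.903).

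Clock encodes the usual partner of ARNTL. Its brightest probe read 1.79, 1.89, 1.46 and 1.37 at 40 weeks, 2.27, 1.65, 1.77 and 2.09 at 4 weeks and 2.38, 2.52, 2.02 and 1.64 in controls. The lowest control lay within the 40-week range and just below the lowest 4-week sample, so the groups overlapped. The difference from controls was -0.52 ± 0.21 at 40 weeks (adjusted p = 0.0711) and -0.23 ± 0.22 at 4 weeks (adjusted p = 0.629). Without control replicate 4 the 40-week difference was -0.68 and was called (adjusted p = 0.0196), as it was when the 3 arrays rich in neighbouring-organ transcripts were left out (-0.83, adjusted p = 0.0100), and after scaling all columns to 1 spread it turned to 0.21 (adjusted p between 0.0100 and 0.502 over all alternatives).

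Npas2, which can replace CLOCK in several tissues, was dim here. Cy5 was well above background on 1 of 4 arrays at 4 weeks and on 4 of 4 controls. The ratios were 0.37, 0.31, 1.01 and 0.37 at 40 weeks, 0.44, 0.30, -0.36 and 0.00 at 4 weeks and 0.62, 0.55, 0.26 and 0.42 in controls. A deposited 0 for this probe stands for a channel at or below local background. The groups overlapped, with differences from controls of 0.05 ± 0.20 at 40 weeks (adjusted p = 0.850) and -0.22 ± 0.13 at 4 weeks (adjusted p = 0.397).

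The Per genes encode the repressors that close the main loop, and of these Per1 and Per2 were called at 40 weeks and none at 4 weeks in scanner ratios. Per1, the Per gene that also answers acutely to glucocorticoids and cAMP signals, had ratios of 0.42, 0.51, 0.62 and 0.70 at 40 weeks, 0.91, 0.42, 0.63 and 0.14 at 4 weeks and -0.18, 0.33, -0.28 and 0.07 in controls. All 40-week samples lay above all controls, whereas the lowest 4-week sample lay below the highest control. Per1 was 1.49-fold higher at 40 weeks (log2 difference 0.58 ± 0.18, adjusted p = 0.0217) and differed by 0.50 ± 0.19 at 4 weeks (adjusted p = 0.223). The 40-week call ended without control replicate 3 (0.49, adjusted p = 0.0618), without 40-week replicate 3 (0.56, 0.0537) or replicate 4 (0.54, 0.0577), without both of those 40-week samples (0.49, 0.163) and with the 3 arrays rich in neighbouring-organ transcripts left out (0.49, 0.116).

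Per2 showed the largest difference from controls at 40 weeks among the members' brightest probes. Its ratios were 2.19, 1.99, 2.12 and 2.00 at 40 weeks, 0.51, -0.06, 0.46 and 0.49 at 4 weeks and -0.05, 0.12, -0.23 and -0.03 in controls. The 40-week samples stood clear of all others, and 4-week replicate 2 lay among the controls. Per2 was 4.35-fold higher at 40 weeks than in controls (2.12 ± 0.14, adjusted p = 1.51e-06), differed by 0.32 ± 0.13 at 4 weeks (adjusted p = 0.256), and was 3.30-fold higher at 40 weeks than at 4 weeks (1.72 ± 0.14, adjusted p = 1.66e-05). The 40-week call was kept in all 18 alternatives run, with differences of 2.04 to 2.71.

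A second Per2 probe did not show this difference. It read 0.45, 0.40, 0.42 and 0.36 at 40 weeks, 0.22, 0.13, 0.27 and -0.01 at 4 weeks and 0.53, 0.55, 0.95 and 0.69 in controls. All 40-week samples lay below all controls, the opposite side from the first probe. In the fit of all kept probes, where 42.2% were called at 40 weeks, the difference was -0.27 ± 0.12 (adjusted p = 0.0925), and at 4 weeks it was -0.38 ± 0.12 (adjusted p = 0.161, beside 0.755% of probes called). Over the 12 samples the probes correlated at r = -0.19. In build mm9 the first probe lies at chr1:93313046-93313105 and the second at chr1:93336538-93336597, both on the minus strand, and the file places them at base 5290 and base 1001 of the transcript. Which exon or UTR they fall in was not analysed here. Their leading 30 of 60 bases are shown because the Per2 result depends on which is read, with no capitals since no motif was searched.
Per2, first probe: acctttcacagtgatcaggtagtagccatg
Per2, second probe: acaccacgagaatgagattcgctaccagcc

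**Figure D2:**
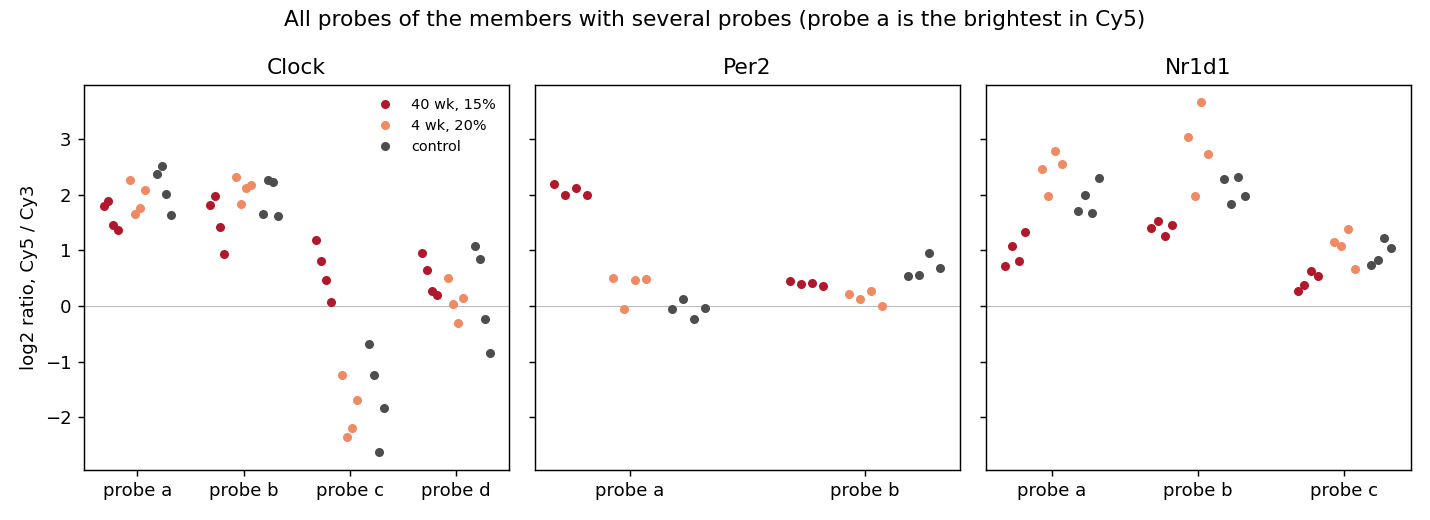
Deposited log2 ratio (y axis) of every probe of Clock, Per2 and Nr1d1 (x axis, probe a being the brightest in Cy5), 1 point per sample, with 40-week, 4-week and control samples in separate colours. The 40-week samples are high on probe a of Per2 and not on probe b, high on probe c of Clock (0.07 to 1.19 against -2.63 to -0.68 in controls) and not on probe a, and low on all probes of Nr1d1.

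Per3 is the Per gene that mouse clocks can run without. Its ratios were 0.49, 0.56, 0.37 and 0.13 at 40 weeks, -0.56, -0.88, 0.15 and -0.28 at 4 weeks and 1.19, 0.58, 0.59 and 0.55 in controls. All 4-week samples lay below all controls, and the highest 4-week sample overlapped the 40-week range. In scanner ratios the 4-week samples read -0.25, -0.41, 0.12 and -0.08, against 0.77, 0.42, 0.46 and 0.39 in controls, a difference of -0.67 ± 0.15 that missed the threshold (adjusted p = 0.0668). Fitted on the deposited table of 12 samples, the same difference was -1.12 ± 0.22 and was called (adjusted p = 0.0138). The difference of 40-week samples from controls was -0.34 ± 0.22 (adjusted p = 0.232), and Per3 was higher at 40 weeks than at 4 weeks by 0.78 ± 0.22 (adjusted p = 0.0143). Its Cy5 signal above background was low at 4 weeks, 31.8, 31.9, 48.8 and 21.2 units, against 150.6, 135.6, 139.3 and 133.7 in controls. These units are not normalised between arrays, and the 4-week arrays were dimmer in Cy5 over all probes. The median signal above background was 40.1 to 104.4 at 4 weeks and 106.5 to 142 in controls. After quantile normalisation the Per3 difference in Cy5 was -0.61.

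Nr1d1 and Nr1d2 encode the nuclear receptors REV-ERB alpha and beta, which repress Arntl. Nr1d1 had ratios of 0.72, 1.07, 0.81 and 1.33 at 40 weeks, 2.47, 1.98, 2.79 and 2.55 at 4 weeks and 1.70, 2.00, 1.67 and 2.30 in controls. The 40-week samples lay below all others, while the 4-week and control ranges overlapped. Nr1d1 fell to 0.523 times the control level at 40 weeks (-0.94 ± 0.21, adjusted p = 0.00372) and to 0.362 times the 4-week level (-1.46 ± 0.21, adjusted p = 0.000288). At 4 weeks its difference from controls was 0.51 ± 0.20 (adjusted p = 0.225). With the 3 arrays rich in neighbouring-organ transcripts left out, this 4-week difference was 0.72 (limma adjusted p = 0.0876). Its other probes differed from controls at 40 weeks by -0.51 ± 0.17 (adjusted p = 0.0306) and -0.70 ± 0.28 (adjusted p = 0.0614), and they followed the first probe over the 12 samples with r = 0.76 and 0.87.

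The spread of the 40-week columns bears on Nr1d1. The SD over probes was 1.02 to 1.08 at 40 weeks, 1.48 to 1.58 at 4 weeks and 1.52 to 1.73 in controls. Genes with a control ratio between 1 and 2, the range that holds the Nr1d1 control mean of 1.92, had a median 40-week difference of -0.57 over 2402 genes, and those above 2, such as Clock at 2.14, a median of -1.28 over 2480 genes. Genes with a control ratio between -1 and 0, which includes Per1 and Per2, had a median of 0.17. With every column scaled to 1 spread, the Nr1d1 difference at 40 weeks was -0.42 ± 0.21 and no longer called (adjusted p = 0.140), 5 members were called, all higher, and the median of all genes was -0.02, beside -0.09 without scaling. The Nr1d1 call was kept in the other 17 of 18 alternatives. The members called after scaling were Per1, Per2, Nr1d2 (0.83, adjusted p = 0.0118), Dbp (0.69, 0.0103) and Ciart (0.88, 0.00881).

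Nr1d2 had ratios of 1.35, 1.41, 1.24 and 0.62 at 40 weeks, 1.26, 0.71, 0.81 and 1.15 at 4 weeks and 0.81, 0.90, 0.72 and 0.65 in controls. The 40-week samples other than replicate 4 lay above all controls, and replicate 4 lay below them. The difference was 0.39 ± 0.19 at 40 weeks (adjusted p = 0.114) and 0.18 ± 0.14 at 4 weeks (adjusted p = 0.545). Without 40-week replicate 4 it was 0.57 and was called (adjusted p = 0.0151), and without replicates 3 and 4 it was 0.61 (adjusted p = 0.0363). The paralogues thus gave differences of opposite sign at 40 weeks, and the difference between them was not tested.

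Dbp and Ciart are targets of the activator pair. Dbp encodes a PAR bZIP activator of D-box genes and is among the most strongly cycling transcripts of peripheral clocks. It had ratios of 1.47, 1.60, 1.53 and 1.80 at 40 weeks, 1.65, 0.86, 1.70 and 1.55 at 4 weeks and 1.49, 1.60, 1.37 and 1.78 in controls. Apart from 4-week replicate 2 at 0.86, all samples fell between 1.37 and 1.80. The differences were 0.04 ± 0.18 at 40 weeks (adjusted p = 0.878, interval -0.36 to 0.44) and -0.05 ± 0.20 at 4 weeks (adjusted p = 0.917, interval -0.50 to 0.40). Without 4-week replicate 2 the difference at 4 weeks was 0.15. With every column scaled to 1 spread, the 40-week difference was 0.69 and was called (limma adjusted p = 0.0103), where 37.0% of all genes were called.

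Ciart, also called CHRONO, encodes a repressor that binds ARNTL, and its promoter is the one with 3 E-boxes above. Its ratios were 0.68, 1.17, 0.82 and 1.45 at 40 weeks, 1.95, 1.33, 1.95 and 1.70 at 4 weeks and 0.75, 0.67, 0.02 and 0.56 in controls. All 4-week samples lay above all controls, and the lowest 40-week sample lay within the control range. In scanner ratios the 4-week samples read 1.79, 1.21, 1.71 and 1.44, against 0.57, 0.56, 0.02 and 0.46 in controls. Ciart was 2.20-fold higher at 4 weeks (1.14 ± 0.17, adjusted p = 0.0350). At 40 weeks it differed from controls by 0.53 ± 0.22 (adjusted p = 0.0698) and was lower than at 4 weeks by 0.70 ± 0.22 (log2 difference -0.70, adjusted p = 0.0221). With the 3 arrays rich in neighbouring-organ transcripts left out, the 40-week difference from controls was 0.32 (limma adjusted p = 0.27). Leaving out any 1 of the 8 arrays ended the 4-week call, with differences of 1.01 to 1.25 and adjusted p-values of 0.0560 to 0.106, and with the 3 arrays rich in neighbouring-organ transcripts left out the difference was 1.08 (adjusted p = 0.0560). The lower level at 40 weeks than at 4 weeks lost its call after scaling (-0.23, adjusted p = 0.435), without 40-week replicates 3 and 4 (-0.81, 0.0512), and without 4-week replicate 1 or 3 or 40-week replicate 1 or 3 (-0.63 to -0.59, 0.0586 to 0.0693).

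The channels were then read apart on the 8 arrays with scanner files, since Cy3 held the same reference RNA throughout. In Cy5, the forestomach channel, Ciart had signals above background of 1050, 896.6, 752.9 and 383.9 units at 4 weeks, against 213.5, 372.7, 210.1 and 326.8 in controls. In Cy3 it had 726.9, 761.2, 531.9 and 595.1 units at 4 weeks, against 368, 449.1, 384.3 and 457 in controls. The reference channel of the Ciart probe was thus also brighter on every 4-week array than on every control array. After quantile normalisation within each channel, Ciart was higher at 4 weeks by 1.86 ± 0.18 in Cy5 (adjusted p = 0.0277) and by 0.83 ± 0.11 in Cy3 (adjusted p = 0.00278). Ciart was the only member called in either channel, where 0.328% of all genes were called in Cy5 and 8.70% in Cy3. The Cy5 call was lost in 6 of 8 fits that left out 1 array, those without a control replicate or without 4-week replicate 1 or 4 (adjusted p-values of 0.0516 to 0.0844), while the Cy3 call was kept in all 8.

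For the other members the Cy3 differences lay between -0.22 and 0.11. For Per2 the Cy3 difference of -0.22 was larger in size than its Cy5 difference. In Cy5, Nr1d1 differed by 0.68 ± 0.21 (adjusted p = 0.163), Per1 by 0.47 ± 0.24 (0.366), Per2 by 0.17 ± 0.25 (0.777) and Nr1d2 by 0.10 ± 0.13 (0.736). Per3 differed by -0.61 ± 0.14 (0.0968), Clock by -0.39 ± 0.22 (0.421), Arntl by -0.26 ± 0.27 (0.667), Npas2 by -0.25 ± 0.12 (0.340) and Dbp by -0.07 ± 0.23 (0.909). The groups did not overlap in Cy5 for Ciart on the higher side and for Per3 on the lower, where 10.8% of all genes did not overlap. Npas2 did not overlap either, but its Cy5 was well above background on 1 of 4 arrays at 4 weeks, so its level there is a bound and it is not counted. For Per3, the Cy3 difference of -0.14 ± 0.05 (adjusted p = 0.112) was smaller than that in Cy5. Its log2 Cy3 signal was 7.56 to 7.64 at 4 weeks and 7.67 to 7.77 in controls.

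**Figure D3:**
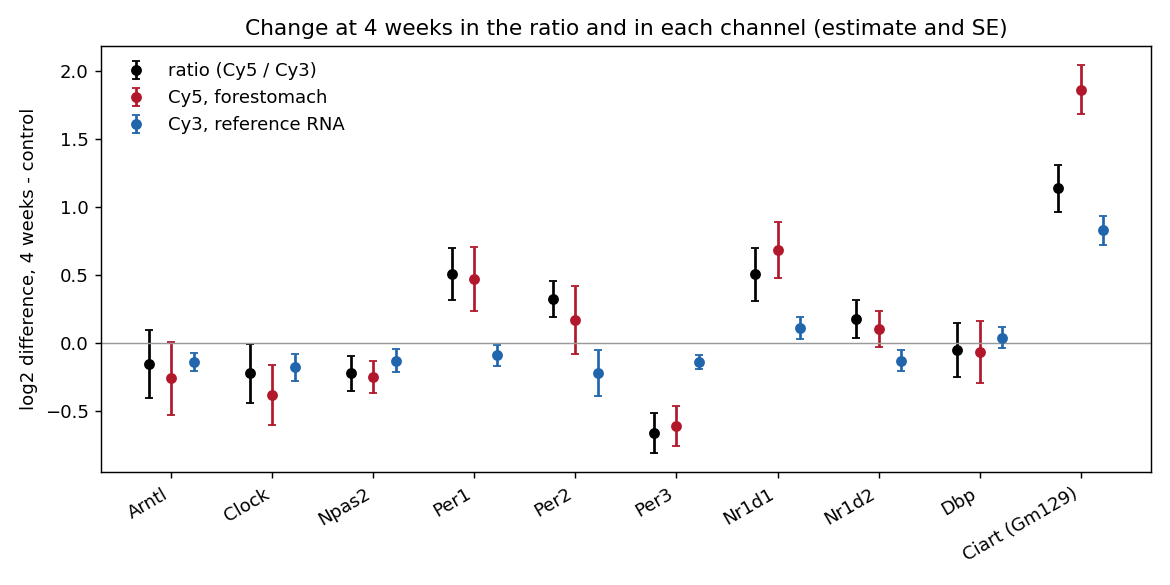
Log2 difference of 4-week from control arrays (y axis, estimate and SE, 4 arrays per group) for each clock gene (x axis) in the ratio, in Cy5 alone and in Cy3 alone. Ciart is higher in Cy5 (1.86) and also in the reference channel (0.83), while Per3 differs by -0.61 in Cy5 and -0.14 in Cy3.

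Whether the arms moved oppositely was read for each sample, as the mean of the 7 genes Per1, Per2, Per3, Nr1d1, Nr1d2, Dbp and Ciart minus the mean of the 3 activators, each gene relative to its control mean. This difference was 0.40, 0.61, 0.59 and 0.87 at 40 weeks, 0.42, -0.15, 1.04 and 0.63 at 4 weeks and -0.05, -0.13, -0.12 and 0.31 in controls. All 40-week samples lay above all controls, and 4-week replicate 2 lay below them. The mean was 0.62 ± 0.19 (SD, n = 4) at 40 weeks, 0.48 ± 0.50 at 4 weeks and 0 ± 0.21 in controls. No test was made on this score, since the genes were chosen with earlier results known. Its activator mean includes Npas2, whose level at 4 weeks is a bound. It was read on columns not scaled to 1 spread, and a scaled score was not computed. After scaling, the 40-week differences of the activators were -0.68 for Arntl, 0.21 for Clock and 0.28 for Npas2.

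These means covered members with differences of both signs. At 40 weeks the 3 Per genes averaged 0.81, 0.80, 0.81 and 0.72 above controls in the 4 samples, while the pair Nr1d1 and Nr1d2 averaged -0.31, -0.10, -0.32 and -0.37. Without Per2, the mean of the remaining 6 genes was -0.05, 0.14, -0.01 and 0.09, close to the control level. With all probes of a gene averaged, the difference between the arms was 0.17 ± 0.23 at 40 weeks (-0.10 to 0.46) and 0.38 ± 0.50 at 4 weeks, and at 40 weeks the samples then overlapped the controls (-0.19 to 0.27). At 4 weeks the differences were negative for Arntl and Clock and positive for 5 of 7 genes outside the activating arm, with Per3 and Dbp negative. Only that of Ciart was called. Npas2 also had a negative difference, but its Cy5 was well above background on 1 of 4 arrays at 4 weeks. Its level there is a bound, and it is not counted. At 40 weeks the differences were negative for Arntl, Clock, Per3 and Nr1d1 and positive for the remaining 6 members. In neither comparison did all 7 genes outside the activating arm lie on 1 side, and before scaling Dbp differed by less than its SE in both.

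The array with glandular stomach transcripts, 4-week replicate 2, had the lowest value of its group in 6 of the 7 genes outside the activating arm and the highest Arntl. For that array the Per2 signal was low in both channels, 7.80 in log2 Cy5 against 8.82 to 8.87 on the other 4-week arrays, and 8.90 in log2 Cy3 against 9.54 to 9.62. Within controls, replicate 3, the array with pancreas transcripts, was the lowest in 5 of the 7. The part of these tissues in the clock values was not tested.

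**Figure D4:**
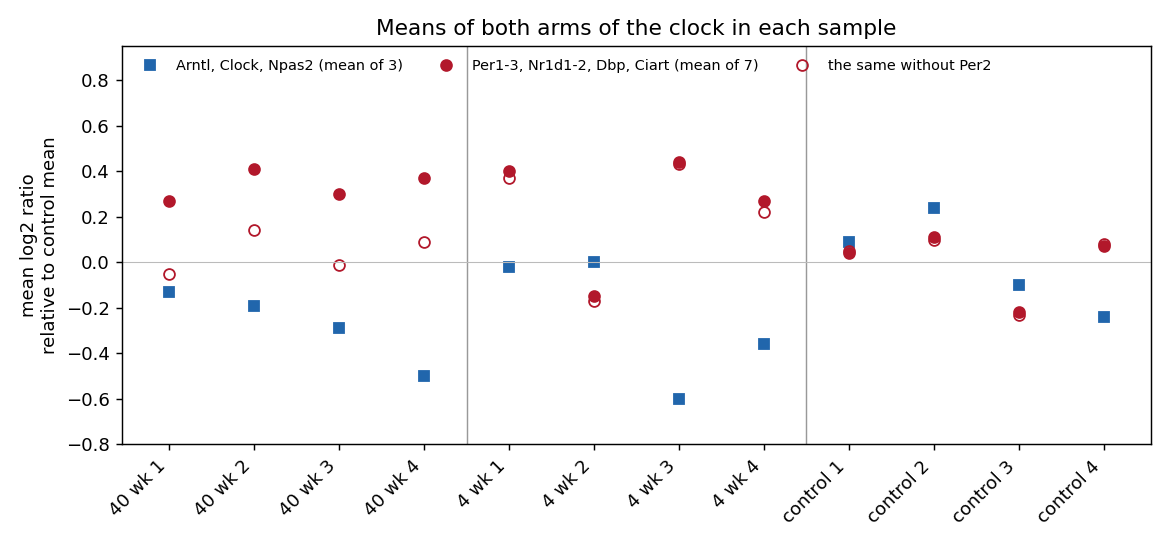
Mean log2 ratio relative to the control mean (y axis) of the 3 activators (squares) and of the 7 other clock genes (filled circles; open circles without Per2) in each of the 12 samples (x axis). At 40 weeks the 7 genes lie above the activators in every sample, and without Per2 their mean falls to between -0.05 and 0.14.

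The remaining probes of Clock differed among themselves as well. The probe at chr5:76664578-76664637 (mm9, minus strand) had ratios of 1.19, 0.80, 0.46 and 0.07 at 40 weeks, -1.25, -2.35, -2.20 and -1.69 at 4 weeks and -0.68, -1.25, -2.63 and -1.84 in controls. All 40-week samples lay above all others, a difference from controls of 2.23 ± 0.40 (adjusted p = 0.000943). The probe nearest to the brightest one gave -0.41 ± 0.24 (adjusted p = 0.184) and correlated with it at r = 0.71, and the fourth gave 0.30 ± 0.38 (adjusted p = 0.541). At 4 weeks the 3 probes differed from controls by -0.19, 0.12 and -0.12, with adjusted p-values of 0.794 to 0.862.

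Other genes of the clock were read from a list of 16, of which 15 were measured. At 40 weeks 6 were higher and none lower by the test, where 18.6% of all genes were called higher and 24.0% lower. An unadjusted p under 0.05 was reached by 8, against 50.9% of all genes, with a list median of 0.46 beside -0.09 over all genes. At 4 weeks limma called none, where 1.07% of all genes were called, 4 had an unadjusted p under 0.05 (17.9% of all genes), and the median was 0.20 beside -0.02. Tef, a PAR bZIP relative of Dbp, had the largest difference at 40 weeks, with ratios of 1.72, 1.73, 1.78 and 1.65, against 0.68, 0.47, 0.48 and 0.39 in controls (1.21 ± 0.15, adjusted p = 9.28e-05). The repressors Bhlhe40 and Bhlhe41 (DEC1 and DEC2) were higher by 0.80 ± 0.17 (adjusted p = 0.00248) and 0.95 ± 0.19 (0.00233). Also higher were Csnk1e, a kinase of PER proteins (0.82, 0.00316), Fbxl21, a ligase subunit that acts on CRY (0.94, 0.0145), and the cell-cycle kinase gene Wee1 (0.80, 0.0421). Bhlhe40, Bhlhe41, Csnk1e and Wee1 had control ratios of -1.70 to -1.07, and the 3444 genes with a control ratio of at most -1 had a median 40-week difference of 0.70, so these 4 values lay close to that of all genes at such levels. For Tef and Fbxl21, with control ratios of 0.50 and 0.40, the median of the 6712 genes between 0 and 1 was -0.23. Rora, the ROR receptor that activates Arntl, had the lowest difference (-0.58 ± 0.22, adjusted p = 0.0506). Its control ratio was 2.01, and the 2480 genes above 2 had a median 40-week difference of -1.28, further below 0 than Rora.

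At 4 weeks the largest difference in the list was that of Usp2, a deubiquitinase gene with strong daily rhythm. Its ratios were 2.90, 2.58, 3.15 and 2.58 at 4 weeks, against 1.37, 1.92, 2.25 and 2.19 in controls (0.84 ± 0.22, adjusted p = 0.109). The deposited ratios of these groups did not overlap for Usp2, nor for Fbxl21 and Cry2. In scanner ratios, 11.8% of all genes did not overlap. Nfil3, the D-box repressor, had the lowest difference (-0.11, adjusted p = 0.812). Cry1 and Cry2 gave no call, with Cry1 differing from controls by 0.53 at 40 weeks (adjusted p = 0.118) and by 0.31 at 4 weeks (0.420). In Cy3 alone Timeless differed by 0.38 and was called (adjusted p = 0.0297), as Ciart was.

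Between the alcohol groups, Csnk1e (0.96, adjusted p = 0.00132), Tef (0.85, 0.00125), Bhlhe40 (0.70, 0.00550) and Bhlhe41 (0.56, 0.0373) were higher at 40 weeks than at 4 weeks. Usp2 (-0.65, 0.0202) and Rora (-0.68, 0.0268) were lower. This made 4 of the 15 genes called higher and 2 lower, where 18.3% of all genes were called higher and 23.2% lower. These differences were not set against genes of like level. Hlf, the third PAR bZIP gene, differed from controls by 0.06 at 40 weeks (adjusted p = 0.808) and Dbp by 0.04. The median 40-week difference of all genes at such control ratios was -1.28 for Hlf (3.08) and -0.57 for Dbp (1.56).

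**Figure D5:**
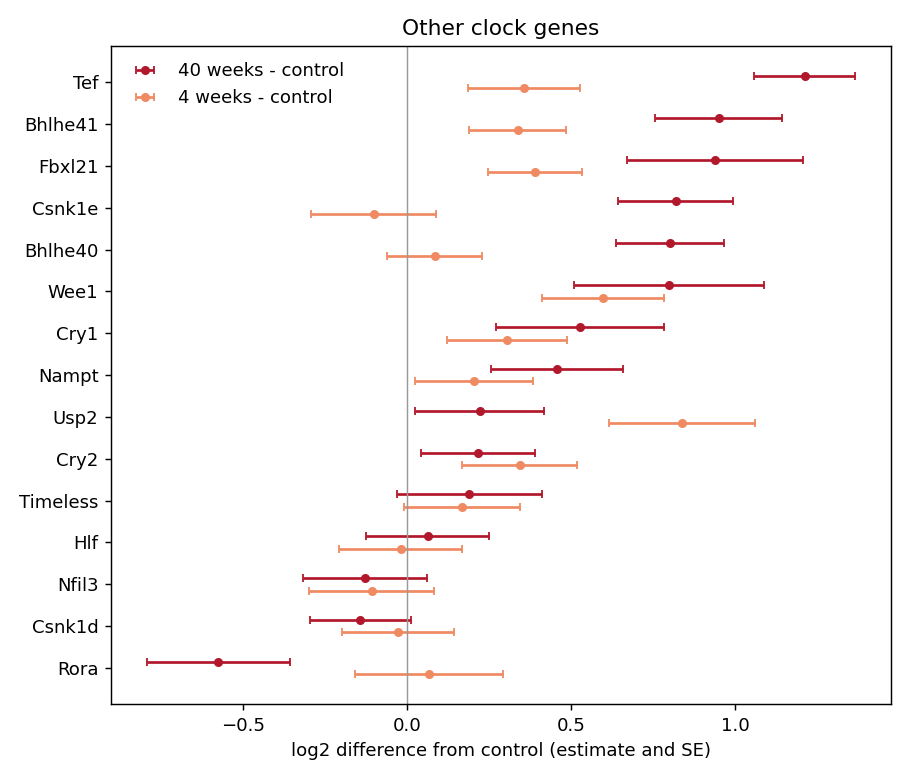
Log2 difference from controls (x axis, estimate and SE) of 15 further clock genes (y axis, ordered by the 40-week value), at 40 weeks and at 4 weeks. Tef (1.21), Bhlhe41 (0.95) and Bhlhe40 (0.80) are high at 40 weeks, and Usp2 (0.84) is highest at 4 weeks.

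The genes whose 12 deposited ratios followed Ciart most closely were Ube2v1, Nup62, Scara3, Gm7544 and Ring1, with Pearson r of 0.90 to 0.95. Those opposed to it were Tnp2, Tbpl1 and Rrad, with r of -0.97 to -0.92. For Arntl they were Smim15, Eny2, Apba1, Acot13 and Olfr318 (0.83 to 0.85), and on the opposite side Itga5, Rnf26 and Otof (-0.92 to -0.86). No clock member or further clock gene was among them. These are the extremes of 20724 genes over 12 samples that share slides and groups, and are given as a description.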

How the data were processed

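Scanner files of the 8 control and 4-week arrays give mean spot and local background signals as intensity, processed signals as intensity, log10 ratios of the processed signals, and flags that are other values of 0 or 1, per the file headers (Agilent Feature Extraction 10.7.3.1; version 9.1 stands in the submitters' processing notes). The deposited value table holds log2 ratios for all 12 samples. Its scale and direction were found by setting it against log2 ratios of scanner signals above local background. Over probes with both channels above local background, Pearson r was 0.974 to 0.983. After a smooth curve of the difference over intensity was taken off, 98.8% to 99.9% of these probes matched within 0.05. All other probes held 0. Column medians were 0.000 to 0.067. How the authors made the 40-week columns could not be checked, and the scanner files of that group were not analysed here. Probe positions are those of the files, in mm9.

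Signals were corrected with normexp (offset 50) and loess in limma 3.58.1 (R 4.3.3). Control spots (1639) and outlier spots (111 to 187 per array) were left out. Probes entered the tests where the flag for Cy5 well above background was set on 3 or more of 4 control or 4-week arrays (30455 probes). The brightest probe stood for each symbol. Probes were named through accessions in a RefSeq table (26918), symbols (5082) or synonyms (817), while 1440 stayed under the file's name and 6917 were unnamed. Median Cy5 signal above background was 40.1 to 104.4 at 4 weeks and 106.5 to 142.0 in controls; precision is limited by the number of arrays. Groups were fitted with lmFit and eBayes, and adjusted p-values are Benjamini-Hochberg values over all genes tested. The fits were tested on simulated data. The members, lists and tests were chosen with earlier results of these data known. Named in the text are all members, every gene of the further clock list that was called or had the largest change in a direction, and the 5 highest and 3 lowest correlates of Ciart and Arntl; Cry1, Cry2 and Hlf were added after their values were seen. Some genes of the further clock list are not reported here. Alternatives covered background, normalisation, scaling, filter, probe choice, source table, weights, left-out arrays and the replicate number as a block. Same-numbered samples did not deviate together in every pair of groups, and whether the numbers pair the samples was not settled.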

Additional observations from a re-analysis of the deposited data

Results flagged for a closer look

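In 6 of the 70 groups of 4 samples examined, 1 sample stood far from the other 3, and chance alone flags about 1 in 20 such groups. For Npas2 this was 40-week replicate 3, with a deposited log2 ratio of 1.01 against 0.31 to 0.37 in the others. For Per3 it was control replicate 1, at 1.19 against 0.55 to 0.59. For Per2 it was 4-week replicate 2, with a ratio of -0.06, a log2 Cy5 signal of 7.80 and a log2 Cy3 signal of 8.90. For Per1 it was control replicate 2, with a log2 Cy5 signal of 10.92 against 10.30 to 10.38.

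The change from control differed between 40 weeks and 4 weeks for 4 members, tested as the direct contrast of the alcohol groups in limma. The 40-week change minus the 4-week change was 1.72 for Per2 (adjusted p = 1.66e-05), 0.78 for Per3 (0.0143), -0.70 for Ciart (0.0221) and -1.46 for Nr1d1 (0.000288). These are values of the brightest probes. A second Per2 probe had mean deposited ratios of 0.41 at 40 weeks, 0.15 at 4 weeks and 0.68 in controls. Alcohol dose, duration and, by the labels, saccharin changed together between these groups and cannot be told apart. The smaller spread of the 40-week columns falls on the same contrast.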

How the results depend on the processing

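Of 779 alternative values for single members, 707 kept their direction and their side of the threshold, 29 changed direction, 31 lost a call and 12 gained one; the cause was not tested. At 4 weeks, 222 genes (55 higher, 167 lower) and 1 member were called. The counts of genes were 545 without background correction, 133 with an offset of 16, 666 with processed signals (237 higher, 429 lower), 144 and 1235 with the deposited values of 8 arrays and of 12 samples, 442 with array weights and 68 in Cy5 alone. They were 0 with median centring (2826 at an unadjusted p under 0.05), with arrays scaled to 1 spread (3265), without the 3 arrays with other organs' transcripts (4558) and with the replicate number as a block (3784), and 0 to 52 without 1 replicate. Members called numbered 2 in the 12-sample table and 0 in those 4 settings and without any 1 replicate; Ciart had an adjusted p of 0.163 with median centring and 0.108 after scaling. Whether the replicate numbers pair the samples was not settled. Same-numbered samples correlated at -0.436 to 0.414 (median 0.08) and the others at -0.491 to 0.646 (median -0.009). Each sample was closest to its own number in 10 of 24 cases. With the block, Ciart had a limma adjusted p of 0.0978. At 40 weeks 8818 genes and 3 members were called, 5 members after scaling, 5048 genes without 40-week replicates 3 and 4, and 7210 to 9251 genes and 2 to 4 members without 1 replicate. Between the alcohol groups 8601 genes and 4 members were called, 4667 genes without 40-week replicates 3 and 4, 13094 with all kept probes fitted singly, and 7084 to 8209 genes and 3 to 4 members without 1 replicate. With the block, 8694 and 8420 genes and the same numbers of members were called. In Cy5 68 genes were called, 7 after percentile scaling, 0 with the block (3934 unadjusted; 0 members) and 0 to 21 genes and 0 to 1 members without 1 replicate. In Cy3 1803 genes were called, 523 after percentile scaling, 1160 with the block and 648 to 2308 without 1 replicate. Directions that turned were all of differences that had not been called. At 4 weeks these were Npas2 0.026 and Nr1d2 -0.001 with median centring, and Dbp 0.107 after scaling, 0.161 without the 3 arrays and -0.14 to 0.145 without 1 replicate (higher without control replicate 4 or 4-week replicate 2). At 40 weeks they were Clock 0.214 after scaling, Npas2 -0.12 without 40-week replicates 3 and 4, -0.071 without the 3 arrays and -0.111 to 0.122 without 1 replicate (lower without control or 40-week replicate 3), and Dbp -0.022 with array weights, -0.023 without 40-week replicates 3 and 4 and -0.027 to 0.113 without 1 replicate (lower without control replicate 3 or 40-week replicate 4). Between the alcohol groups they were Arntl 0.114 without 40-week replicates 3 and 4, 0.078 without the 3 arrays and -0.342 to 0.078 without 1 replicate (higher without 4-week replicate 2), Clock 0.344 after scaling, Per1 -0.019 with weights, -0.056 without 40-week replicates 3 and 4 and -0.09 to 0.168 without 1 replicate (lower without replicate 4 of either group), and Dbp -0.037 without the 3 arrays and -0.037 to 0.243 without 1 replicate (lower without 4-week replicate 2). In Cy5 they were Npas2 0.033 after percentile scaling and Dbp -0.18 to 0.151 without 1 replicate, and in Cy3 Dbp -0.027 to 0.087. For Npas2, Cy5 was well above background on 1 of 4 arrays at 4 weeks.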

Other observations

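Per1 is also an acute target of the glucocorticoid receptor, so 11 glucocorticoid target genes were read together, of which 10 were measured and 1 is Per1 itself. At 4 weeks 8 of the 10 were higher and 2 lower, with 1 called (1.07% of all genes were called) and a median of 0.36 beside -0.02 over all genes. The called gene was Cdkn1a, a cell-cycle inhibitor gene (0.63 ± 0.12, adjusted p = 0.0476). Fkbp5, a co-chaperone gene of the receptor, differed by 0.43 ± 0.12 (adjusted p = 0.131), and Tsc22d3, which encodes GILZ, by -0.10 ± 0.13 (0.735). At 40 weeks 5 were higher and 5 lower than in controls, with a median of -0.03, and 3 were called where 42.5% of all genes were. Mt1, a metallothionein gene, was higher by 1.11 ± 0.23 (adjusted p = 0.00286), as was Per1, and Klf9 was lower by 0.53 (log2 difference -0.53, adjusted p = 0.0233). These genes were picked for naming after their values were seen.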
